A study of Mus musculus with 12 samples.

Results

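Open chromatin around 10 neutrophil genes was examined in dorsal root ganglia (DRG), the clusters of sensory neuron cell bodies beside the spinal cord. The genes were S100a8, S100a9, Csf3r, Mmp8, Mmp9, Camp, Ngp, Elane, Ly6g and Retnlg. Their sites were all peak summits inside these genes or within 50 kb of either end, each counted a single time where neighbours share it. There were 167 such summits among 155267 in the 4 lists of the series. The measurement was ATAC-seq, in which a transposase cuts and tags accessible DNA. The L4 to L6 ganglia were taken from mice after a crush of the sciatic nerve at mid-thigh or after a sham operation, 6 ganglia per extraction. The 4 groups were Silc1-/- injured, Silc1-/- sham, wild type injured and wild type sham, with 3 libraries each. Silc1 is a long noncoding RNA gene, and the title of the series places the work in the regulation of nerve regeneration. Age, sex by group, the time after injury and how the Silc1 allele was made were not stated in the labels used here.

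Each group had 1 list of summits, the points of highest signal within peaks, so the spread between animals is unknown and group differences carry no test. The lists held 35815 summits in Silc1-/- injured, 48332 in Silc1-/- sham, 43841 in wild type injured and 27279 in wild type sham ganglia. Read depth is unknown, and it bears on the length of a list. Numbers were therefore also given per 10000 summits of a list. Each summit carries the authors' score on a -log10 scale, from 1.30 upwards. The score depends on depth, so scores of different lists set side by side describe each list and are not a measured difference. Of 10 sensory neuron genes, 7 in Silc1-/- injured, 8 in Silc1-/- sham, 7 in wild type injured and 7 in wild type sham had a summit inside or within 1 kb of an end. For 8 genes of satellite glia and Schwann cells the numbers were 3 in Silc1-/- injured, 5 in Silc1-/- sham, 5 in wild type injured and 2 in wild type sham. Among all protein-coding genes the share was 58.5% in Silc1-/- injured, 64.6% in Silc1-/- sham, 64.9% in wild type injured and 57.3% in wild type sham, so a summit this close is common.

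Neutrophils are short-lived white blood cells that are made in the bone marrow and leave the blood for injured tissue. They carry proteases and antimicrobial peptides in granules that are filled in sequence during their development, under transcription factors that include C/EBP epsilon, PU.1 and RUNX1. Nerve crush is known to draw neutrophils to the damaged nerve, and myeloid cells also gather in the ganglia. In bulk tissue, fewer neutrophils and fewer open sites per cell cannot be told apart.

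The start regions come first, because 6 of the 9 members in the RefSeq promoter table (all but Mmp9) had a summit of at least 1 list within their window of 250 bases before to 50 after the start. The 250 bases before the start are printed 5' to 3' on the gene's strand (RefSeq, GRCm38.p6, which is mm10). Capitals mark matches, on either strand, to GAGGAAGT or its shorter form GGAAGT (PU.1), TTGCNNAA (C/EBP) and TGTGGT (RUNX).
S100a8, chr3:90668821-90669070, plus strand: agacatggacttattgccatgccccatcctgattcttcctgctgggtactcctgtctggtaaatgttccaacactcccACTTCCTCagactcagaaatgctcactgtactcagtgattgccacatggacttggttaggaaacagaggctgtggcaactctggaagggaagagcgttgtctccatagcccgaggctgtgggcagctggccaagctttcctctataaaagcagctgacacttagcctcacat
S100a9, chr3:90695722-90695971, minus strand: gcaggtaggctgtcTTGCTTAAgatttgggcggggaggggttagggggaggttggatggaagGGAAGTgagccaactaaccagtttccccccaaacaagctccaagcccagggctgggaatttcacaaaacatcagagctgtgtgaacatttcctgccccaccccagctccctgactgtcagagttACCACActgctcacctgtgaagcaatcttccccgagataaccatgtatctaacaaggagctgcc
Mmp8, chr9:7558179-7558428, plus strand: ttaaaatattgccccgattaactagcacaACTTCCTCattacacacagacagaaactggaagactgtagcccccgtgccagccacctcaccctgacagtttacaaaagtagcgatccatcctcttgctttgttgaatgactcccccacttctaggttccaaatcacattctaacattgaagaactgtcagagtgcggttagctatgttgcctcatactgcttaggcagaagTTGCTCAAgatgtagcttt
Retnlg, chr16:48872358-48872607, plus strand: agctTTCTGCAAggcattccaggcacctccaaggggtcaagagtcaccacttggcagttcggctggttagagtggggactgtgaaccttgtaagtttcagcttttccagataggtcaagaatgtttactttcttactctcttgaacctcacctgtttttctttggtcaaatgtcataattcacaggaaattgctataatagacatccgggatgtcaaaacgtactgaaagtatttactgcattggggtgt
Camp, chr9:109849457-109849706, minus strand: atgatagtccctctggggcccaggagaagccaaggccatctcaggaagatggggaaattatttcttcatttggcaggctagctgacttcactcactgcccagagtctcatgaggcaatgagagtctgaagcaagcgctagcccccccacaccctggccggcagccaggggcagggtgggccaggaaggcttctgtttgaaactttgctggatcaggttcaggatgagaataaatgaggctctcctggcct
Csf3r, chr4:126024409-126024658, plus strand: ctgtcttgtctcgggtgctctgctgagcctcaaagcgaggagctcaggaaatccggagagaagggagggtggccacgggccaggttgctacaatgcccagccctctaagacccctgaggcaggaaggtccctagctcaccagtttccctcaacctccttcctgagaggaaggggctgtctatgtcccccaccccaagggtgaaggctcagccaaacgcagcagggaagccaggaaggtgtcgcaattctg

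A summit in the start window was found for 2 members in Silc1-/- injured, 2 in Silc1-/- sham, 6 in wild type injured and 2 in wild type sham ganglia. Among 17492 coding genes of the promoter table, the share with such a summit was 37.3% in Silc1-/- injured, 41.9% in Silc1-/- sham, 43.5% in wild type injured and 38.4% in wild type sham. S100a8 had one in all 4 lists. S100a9 had one in the wild type injured and wild type sham lists. Camp had one in both Silc1-/- lists and in wild type injured. Mmp8, Retnlg and Csf3r had one in wild type injured alone. Ngp, Elane and Ly6g had none in any list.

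The letters GAGGAAGT, a PU.1 form, stood in 5 of the 10 start windows of the members (Ly6g has 2 overlapping windows), against 3.13% of 21263 windows of coding genes. They belonged to 4 genes: S100a8, Mmp8, Elane and Ly6g. TTGCNNAA stood in 5 windows (S100a9, Mmp8, Ngp, Ly6g and Retnlg), against 10.2% of all windows. GGAAGT, which every GAGGAAGT contains, stood in 6 against 24.8%. TGTGGT stood in 1, that of S100a9, against 15%, and TGANTCA, the AP-1 form, in 0 against 6.99%. The windows of Camp and Csf3r held none of these letters. With the start counted as 0, the PU.1 letters of S100a8 lay at -172 to -165, 96 bp from the summit of Silc1-/- sham and of wild type sham. The C/EBP letters of Mmp8 lay at -19 to -12, 46 bp from the wild type injured summit. The RUNX letters of S100a9 lay at -64 to -59, 44 bp from the wild type injured summit and 10 bp from that of wild type sham. Other matches lay farther from the summits. The C/EBP letters of S100a9 were 214 bp from the wild type injured summit and 155 bp from that of wild type sham. From the wild type injured summits, the C/EBP letters of Retnlg were 141 bp away and the PU.1 letters of Mmp8 248 bp. The PU.1 letters of S100a8 were 209 bp from the Silc1-/- injured summit. Such matches describe the sequence and are not binding sites.

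Over the whole 50 kb neighbourhoods the members had 30 distinct summits in Silc1-/- injured, 43 in Silc1-/- sham, 63 in wild type injured and 31 in wild type sham ganglia. Per 10000 summits of the list this came to 8.38 (exact binomial 95% interval 5.65 to 11.96) in Silc1-/- injured and 8.90 (6.44 to 11.98) in Silc1-/- sham. It came to 14.4 (11.0 to 18.4) in wild type injured and 11.4 (7.72 to 16.1) in wild type sham. These intervals cover counting error only, and neighbouring summits are not independent. The wild type injured list was the highest on both scales. At least 1 summit within 50 kb was found for all 10 members in 3 of the lists and for 9 in wild type sham, where Retnlg had none. The share among 21887 protein-coding genes was 86% in Silc1-/- injured, 87.6% in Silc1-/- sham, 87.3% in wild type injured and 81.6% in wild type sham, so having a summit at this distance is common.

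**Figure D1:**
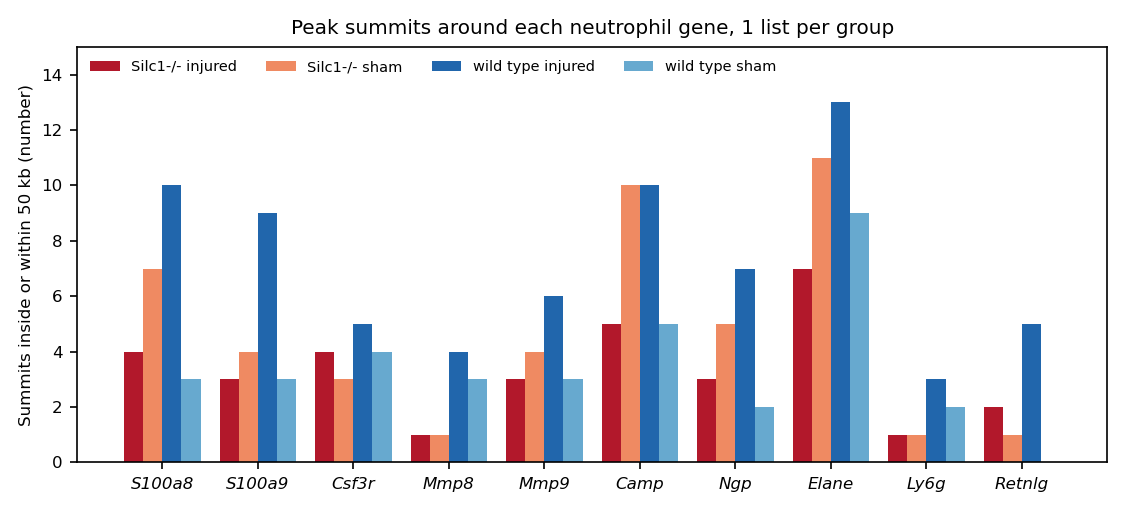
Number of summits inside or within 50 kb of each gene (vertical axis) for the 10 genes (horizontal axis), with a bar per list. The wild type injured bar is the tallest or shares the greatest height at every gene, from 3 at Ly6g to 13 at Elane, and Retnlg has no bar in wild type sham.

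After injury, fewer summits lay near the members in ganglia without Silc1 than in wild type ones. Scaled to list length the ratio of Silc1-/- injured to wild type injured was 0.583 (0.364 to 0.914), from 30 against 63 summits. On the scaled count with a pseudocount of 1, all 10 genes were lower. The share of all coding genes below or above 0 was not counted in any contrast. S100a8 and S100a9 share summits, so the 10 genes are not separate observations. The median log2 ratio was -0.77, against 0 over all coding genes. At least a 2-fold decrease was seen for 2 of the 10, S100a9 (-1.08) and Mmp8 (-1.12), where 5.51% of coding genes had one. Few summits underlie these ratios. S100a9 had 3 in Silc1-/- injured and 9 in wild type injured, and Mmp8 had 1 and 4. None of the 10 was 2-fold higher, against 4.84% of coding genes. The smallest difference was at Csf3r (-0.02). A ratio of 1.5-fold or more in either direction was used as the size to call a difference between lists, and this contrast was the only one of the 4 past it.

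In wild type, the ratio of injured to sham was 1.26 (0.810 to 2.01), from 63 against 31 summits, and the interval includes no change. Without scaling it was 2.03, and the injured list as a whole was the longer. Of the 10 genes 6 were above 0 and 4 below, with a median of 0.27, and 1 was at least 2-fold higher, against 5.4% of coding genes. That gene was Retnlg (log2 ratio 2.44), with 5 summits in wild type injured and 0 in wild type sham. In Silc1-/- ganglia the ratio of injured to sham was 0.942 (0.570 to 1.54), from 30 against 43. No member there was 2-fold higher or lower, against 4.74% and 4.92% of coding genes.

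Between the sham groups, the ratio of Silc1-/- to wild type was 0.783 (0.482 to 1.29), from 43 against 31 summits. Without scaling the direction was the opposite, 1.39. Mmp8 (log2 ratio -1.55) and Ly6g (-1.09) were at least 2-fold lower, where 5.61% of coding genes were, and none was 2-fold higher, where 6.81% were. Mmp8 had 1 summit in Silc1-/- sham and 3 in wild type sham. Ly6g had 1 in Silc1-/- sham and 2 in wild type sham, so each of these ratios rests on 1 or 2 summits. The 4 contrasts use the same 4 lists and are not independent.

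**Figure D2:**
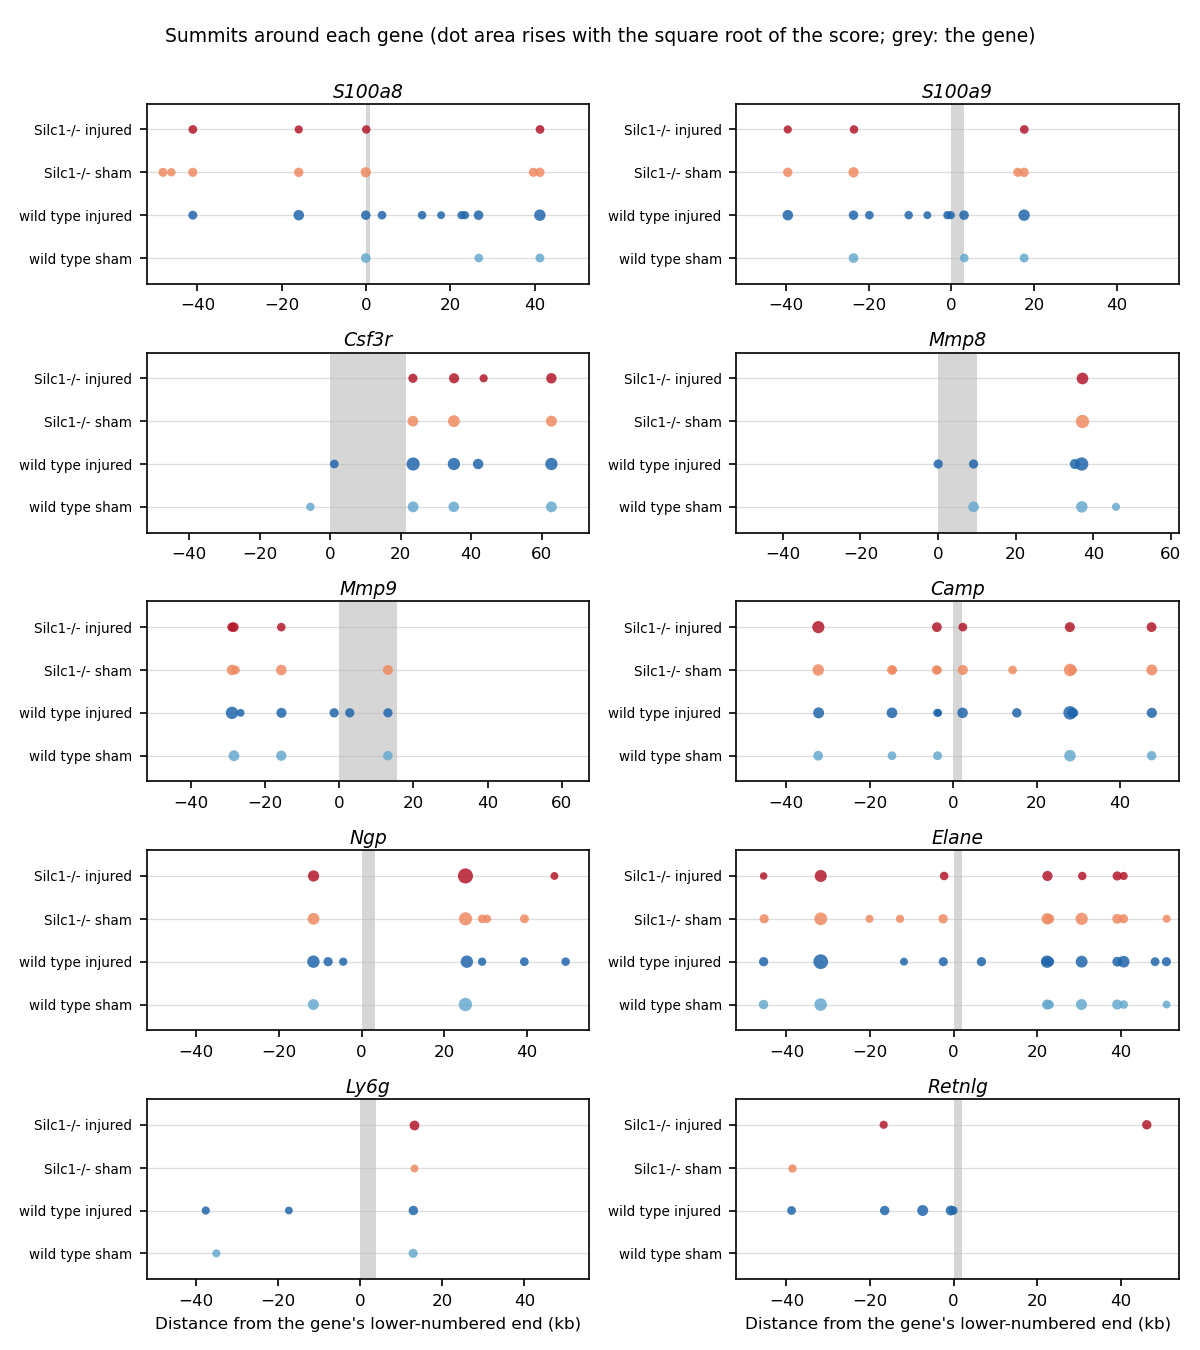
Position of each summit (horizontal axis, distance in kb from the gene's lower-numbered end) in the 4 lists (rows), 1 panel per gene. The grey band is the gene, and dot area rises with the square root of the score. Dots inside or beside the grey bands are mostly those of wild type injured, for example at Retnlg and S100a9, while several dots farther away line up in all 4 rows.

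Many sites in these neighbourhoods belong to the ends of other genes. Within 1 kb of an end of another coding gene lay 11 of the 30 summits of Silc1-/- injured (36.7%) and 15 of the 43 of Silc1-/- sham (34.9%). The same held for 17 of the 63 of wild type injured (27.0%) and 12 of the 31 of wild type sham (38.7%). The highest-scoring such site lay 93 bp from an end of Ptbp1, which encodes a splicing regulator, 31.8 kb from Elane. Its scores were 20.5 in Silc1-/- injured, 27.9 in Silc1-/- sham, 52.9 in wild type injured and 25.7 in wild type sham. When such summits were left out, there remained 19 in Silc1-/- injured, 28 in Silc1-/- sham, 46 in wild type injured and 19 in wild type sham, and the ratio of Silc1-/- injured to wild type injured was -0.98 on the log2 scale.

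Close to the members themselves the scaled counts lay further apart, but the counts were small. Inside the genes or within 1 kb lay 2 summits in Silc1-/- injured, 3 in Silc1-/- sham, 12 in wild type injured and 4 in wild type sham. Of the 10 members, 2 in Silc1-/- injured, 3 in Silc1-/- sham, 7 in wild type injured and 4 in wild type sham had such a summit. The share among coding genes was 58.5% in Silc1-/- injured, 64.6% in Silc1-/- sham, 64.9% in wild type injured and 57.3% in wild type sham. The 7 of wild type injured are thus near the share of all coding genes, and the other lists are under it. Within 5 kb, leaving out the ends of other coding genes, there were 2 in Silc1-/- injured, 3 in Silc1-/- sham, 15 in wild type injured and 4 in wild type sham. Per 10000 summits of the list these came to 0.558 in Silc1-/- injured, 0.621 in Silc1-/- sham, 3.42 in wild type injured and 1.47 in wild type sham. The ratio of Silc1-/- injured to wild type injured there was -2.62 on the log2 scale (-5.79 to -0.51), from 2 against 15 summits. This interval overlaps that over 50 kb (-1.46 to -0.13). The log2 ratio of wild type injured to wild type sham was 1.22, from 15 against 4. Its interval (-0.43 to 3.27) includes no change. The 5 kb distance combined with leaving out other coding gene ends was chosen after the values had been seen.

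**Figure D3:**
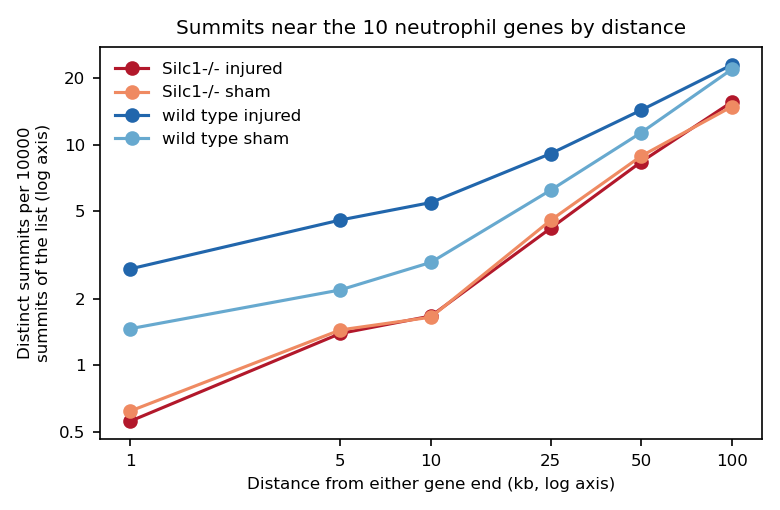
Distinct summits near the 10 genes per 10000 summits of the list (vertical axis, log scale) by the distance allowed from a gene (horizontal axis, kb, log scale), a line per list. Wild type injured is highest at every distance drawn, at 2.74 within 1 kb and 23.0 within 100 kb, while the lines draw closer together with distance.

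When summits of all lists were joined within 200 bp, the neighbourhoods held 81 sites. Of these 28 were in the wild type injured list alone (34.6%), where 16% of all 78381 sites of the series were. In the other lists alone were 5 for Silc1-/- injured (6.17%, against 10.8% of all sites), 9 for Silc1-/- sham (11.1%, against 21.1%) and 3 for wild type sham (3.7%, against 4.45%). All 4 lists held 19 sites (23.5%, against 18.3%). Both wild type lists alone held 2, close to the share of all sites (2.47%, against 2.38%). No site was in both injured lists alone (2.72% of all sites), in both sham lists alone (1.51%) or in both Silc1-/- lists alone (4.38%). These numbers depend on the 200 bp limit. Near Retnlg, a Silc1-/- injured summit at 48855872 and a wild type injured summit at 48856114 lay just past it and counted as sites of single lists.

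Within 5 kb of a member and away from other coding gene ends, limits chosen after the values had been seen, lay 15 of the sites. Each of these was in the wild type injured list. Of them 2 were also in Silc1-/- injured, 3 in Silc1-/- sham and 4 in wild type sham, and 10 were in wild type injured alone. Those 10 entered the set only through the wild type injured list, so its share of the 15 is no separate result. Over all sites of the series, at any distance from genes, 45.1% were in Silc1-/- injured, 60.8% in Silc1-/- sham, 55.3% in wild type injured and 34.3% in wild type sham. The 15 sites belonged to 8 members, all but Elane and Ly6g.

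S100a8 and S100a9 encode the subunits of calprotectin, the most abundant cytosolic protein of neutrophils and an alarm signal when released. S100a8 (gene ID 20201, chromosome 3, 90669071 to 90670034, mm10) had 4 summits in Silc1-/- injured, 7 in Silc1-/- sham, 10 in wild type injured and 3 in wild type sham ganglia. Its start carried a summit in every list. The Silc1-/- injured summit lay 44 bp inside the gene (score 3.09, percentile 27.5 of its list) and the Silc1-/- sham summit 69 bp upstream (9.55, percentile 75.9). The wild type injured summit lay 68 bp upstream (6.06, percentile 54) and the wild type sham summit 69 bp upstream (6.94, percentile 53.2). Both sham summits fell on the same base, 90669002, and the wild type injured one on the next. Wild type injured alone had a further summit 2804 bp beyond the far end (90672838, 3.48).

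S100a9 (gene ID 20202, chromosome 3, 90692630 to 90695721, minus strand) had 3 summits in Silc1-/- injured, 4 in Silc1-/- sham, 9 in wild type injured and 3 in wild type sham. Its start carried none in the Silc1-/- lists. A wild type injured summit lay 15 bp upstream of it (position 90695736, score 6.61, percentile 55.5) and a wild type sham summit 74 bp upstream (90695795, 3.54, percentile 23.4). Beyond the other end of the gene, wild type injured alone had summits at 104 bp (score 2.57), 919 bp (2.76), 5770 bp (1.99) and 10287 bp (3.18). All these lay between S100a8 and S100a9. The highest-scoring site of Silc1-/- sham alone lay 13006 bp beyond the start (90708727, 4.97). Another site 14542 bp beyond the start, at 90710263, was in all 4 lists, with scores of 3.73 in Silc1-/- injured, 5.67 in Silc1-/- sham, 16.2 in wild type injured and 4.20 in wild type sham.

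Csf3r encodes the receptor for G-CSF, the cytokine that drives neutrophil production and release. The gene (ID 12986, chromosome 4, 126023441 to 126044975) had 4 summits in Silc1-/- injured, 3 in Silc1-/- sham, 5 in wild type injured and 4 in wild type sham. Most were not at the gene's own start: 3 sites in all 4 lists lay beyond the far end, the nearest at an end of Mrps15, which encodes a mitochondrial ribosomal protein. The scores of that nearest site were 4.99 in Silc1-/- injured, 11.7 in Silc1-/- sham, 32.5 in wild type injured and 12.6 in wild type sham. At 40 bases before a Csf3r start of the promoter table, wild type injured alone had a summit (position 126024619, score 3.82, percentile 31.4). Wild type sham alone had one 5602 bp outside the gene (2.92).

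Mmp8 encodes neutrophil collagenase, stored in specific granules. The gene (ID 17394, chromosome 9, 7558429 to 7568486) had 1 summit in Silc1-/- injured, 1 in Silc1-/- sham, 4 in wild type injured and 3 in wild type sham. No summit of a Silc1-/- list lay inside it. Wild type injured had a summit 34 bp after the start (position 7558463, score 5.19) and one 915 bp before the far end (7567571, 5.19). Wild type sham had a summit 916 bp before the far end (7567570, 11.2, percentile 69.3), next to the base used in wild type injured. The single site of the Silc1-/- lists lay 26.9 to 27.0 kb from Mmp8 on the side of Mmp27 and was in all 4 lists, with scores of 18.0 in Silc1-/- injured, 33.5 in Silc1-/- sham, 34.2 in wild type injured and 16.6 in wild type sham.

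Mmp9 encodes gelatinase B, which neutrophils store in gelatinase granules and which macrophages and other cells also make. The gene (ID 17395, chromosome 2, 164940326 to 164955850) had 3 summits in Silc1-/- injured, 4 in Silc1-/- sham, 6 in wild type injured and 3 in wild type sham. A site inside the gene was found in every list except Silc1-/- injured: at 164953415 in Silc1-/- sham (score 8.46, percentile 72.2), 164953438 in wild type injured (5.30, percentile 48.6) and 164953421 in wild type sham (6.04, percentile 48.3). Wild type injured alone had a second site inside the gene at 164943130 (5.19) and one 1407 bp outside it at 164938919 (5.51).

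Camp encodes cathelicidin, an antimicrobial peptide of specific granules. The gene (ID 12796, chromosome 9, 109847377 to 109849456, minus strand) had 5 summits in Silc1-/- injured, 10 in Silc1-/- sham, 10 in wild type injured and 5 in wild type sham. Its start was the only start region of the members with a summit in both Silc1-/- lists and none in wild type sham. The summits lay 220 bp upstream in Silc1-/- injured (score 3.73, percentile 37.7), 209 bp in Silc1-/- sham (8.73, percentile 73.4) and 154 bp in wild type injured (10.8, percentile 71.6). A site 3581 to 3993 bp from Camp was in all 4 lists, with highest scores of 7.31 in Silc1-/- injured, 6.40 in Silc1-/- sham, 2.57 in wild type injured and 4.20 in wild type sham. It and further sites lay at ends of Nme6, a nucleoside diphosphate kinase gene, and of Cdc25a, which encodes a cell cycle phosphatase.

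Ngp encodes neutrophilic granule protein, a cathelicidin-related protein of mouse specific granules. The gene (ID 18054, chromosome 9, 110419808 to 110423012) had 3 summits in Silc1-/- injured, 5 in Silc1-/- sham, 7 in wild type injured and 2 in wild type sham. None lay inside it or within 1 kb. The nearest was in wild type injured alone, 4419 bp before the start (position 110415389, score 2.71), and another of that list lay 8087 bp away (5.18). The highest-scoring summit of all neighbourhoods lay about 22.0 kb beyond Ngp, with scores of 60.0 in Silc1-/- injured (position 110444978), 31.8 in Silc1-/- sham and 34.4 in wild type sham. The wild type injured summit there (24.0) was at 110445326, too far from the others to be joined, so it counted as a site of its own.

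Elane encodes neutrophil elastase, a serine protease of azurophil granules, and stands beside Prtn3, which encodes proteinase 3. The gene (ID 50701, chromosome 10, 79886312 to 79888216) had the most summits of the members, 7 in Silc1-/- injured, 11 in Silc1-/- sham, 13 in wild type injured and 9 in wild type sham. None was inside Elane or within 1 kb. The nearest lay at the Prtn3 end, 2265 bp from Elane in Silc1-/- injured (score 3.31), 2507 bp in Silc1-/- sham (5.65) and 2468 bp in wild type injured (4.70). Wild type sham had no summit there. Wild type injured alone had a summit 4754 bp from Elane at an end of Cfd (5.16), which encodes complement factor D.

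Ly6g encodes the surface protein by which mouse neutrophils are sorted. The gene (ID 546644, chromosome 15, 75155261 to 75159128) had 1 summit in Silc1-/- injured, 1 in Silc1-/- sham, 3 in wild type injured and 2 in wild type sham, and none within 5 kb. A site 9.04 to 9.21 kb beyond it was in all lists, with scores of 7.31 in Silc1-/- injured, 1.87 in Silc1-/- sham, 5.92 in wild type injured and 4.89 in wild type sham. Ly6g lies in a family of similar genes, so reads there may be shared with near copies.

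Retnlg encodes a resistin-like protein of mouse neutrophils and bone marrow. The gene (ID 245195, chromosome 16, 48872608 to 48874498) had 2 summits in Silc1-/- injured, 1 in Silc1-/- sham, 5 in wild type injured and 0 in wild type sham. The 3 nearest were all of wild type injured alone, 98 bp (position 48872510, score 3.76), 689 bp (48871919, 8.03) and 7401 bp (48865207, 13.4) before the start. The Silc1-/- injured summits lay 16736 and 44309 bp away (2.48 and 5.80), and the Silc1-/- sham summit 38777 bp away (3.01).

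Few summits lay inside the members or within 1 kb, and no difference in their rank between the lists was tested. Their median score percentile was 32.6 in Silc1-/- injured, 73.4 in Silc1-/- sham, 46.3 in wild type injured and 50.8 in wild type sham. They ranged over 27.5 to 37.7 in Silc1-/- injured (2 summits), 72.2 to 75.9 in Silc1-/- sham (3), 16.5 to 71.6 in wild type injured (12) and 23.4 to 69.3 in wild type sham (4). Over the whole neighbourhoods the median percentile was 55.4 in Silc1-/- injured, 57.6 in Silc1-/- sham, 48.9 in wild type injured and 53.2 in wild type sham.

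Lists of other neutrophil genes were chosen with earlier results of these data known and are not independent evidence of a direction. The 15 further granule genes, among them Mpo, Ltf and Lcn2, had 37 distinct summits in Silc1-/- injured, 48 in Silc1-/- sham, 79 in wild type injured and 38 in wild type sham. Prtn3 neighbours Elane, so some of these were also summits of the members, 7 in Silc1-/- injured, 10 in Silc1-/- sham, 11 in wild type injured and 8 in wild type sham. The ratio of Silc1-/- injured to wild type injured was -0.80 on the log2 scale (-1.41 to -0.22), with 12 genes lower and 0 higher. The share of all coding genes that were lower was not counted. The median log2 ratio of a gene was -0.44, against 0 over all coding genes, and 4 were at least 2-fold lower, where 5.51% of coding genes were. A summit inside or within 1 kb was found for 1 in Silc1-/- injured, 2 in Silc1-/- sham, 8 in wild type injured and 0 in wild type sham, of 15 genes. The share among all coding genes, given above, was 64.9% in wild type injured, so 8 of 15 is no excess over it. Lcn2 encodes the granule protein lipocalin 2. Within 50 kb it had 7 summits in Silc1-/- injured, 11 in Silc1-/- sham, 13 in wild type injured and 7 in wild type sham. Prtn3 had 7 in Silc1-/- injured, 11 in Silc1-/- sham, 12 in wild type injured and 8 in wild type sham over that distance.

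The 19 genes of neutrophil recruitment and adhesion had 50 distinct summits in Silc1-/- injured, 75 in Silc1-/- sham, 108 in wild type injured and 52 in wild type sham. The ratio of Silc1-/- injured to wild type injured was -0.82 (-1.33 to -0.32), with 18 genes lower and 1 higher. Here too the share of all coding genes that were lower was not counted. The median log2 ratio of a gene was -0.76, against 0 over all coding genes. At least a 2-fold decrease was seen for 4, where 5.51% of coding genes had one. Neighbouring genes of this list share summits, so its genes are not separate observations. C5ar1, the receptor for complement C5a, had 7 in Silc1-/- injured, 12 in Silc1-/- sham, 13 in wild type injured and 9 in wild type sham. Itgb2, the shared beta subunit of leukocyte integrins, had 7 in Silc1-/- injured, 6 in Silc1-/- sham, 13 in wild type injured and 6 in wild type sham. Selplg, the ligand of P-selectin, had 3 in Silc1-/- injured, 8 in Silc1-/- sham, 12 in wild type injured and 5 in wild type sham. Several of these genes, such as Itgam and Itgb2, are also used by macrophages. The 7 transcription factor genes of the lineage had 23 in Silc1-/- injured, 36 in Silc1-/- sham, 39 in wild type injured and 24 in wild type sham, with a ratio of Silc1-/- injured to wild type injured of -0.47 (-1.28 to 0.31). Runx1 had 6 in Silc1-/- injured, 12 in Silc1-/- sham, 9 in wild type injured and 12 in wild type sham. Spi1, which encodes PU.1, had 6 in Silc1-/- injured, 8 in Silc1-/- sham, 9 in wild type injured and 4 in wild type sham.

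For the 5 lists of blood, nerve and glial cell types that follow, the interval of this ratio included no change. The 12 macrophage genes had 36 distinct summits in Silc1-/- injured, 47 in Silc1-/- sham, 55 in wild type injured and 27 in wild type sham, and their ratio of Silc1-/- injured to wild type injured was -0.32 (-0.97 to 0.31). The ratio was -0.23 (-1.06 to 0.58) for 7 erythroid genes and -0.05 (-0.85 to 0.73) for 8 genes of T and B lymphocytes. It was 0.01 (-0.72 to 0.72) for 10 sensory neuron genes and -0.04 (-0.77 to 0.68) for 8 genes of satellite glia and Schwann cells. These intervals overlap that of the members (-1.46 to -0.13), and whether the lists differ from each other was not tested. The part of blood or of other myeloid cells in these values was not tested either. Between the injured groups, genes lower and higher numbered 8 and 2 for macrophages, 5 and 2 for erythroid cells and 3 and 4 for lymphocytes. They numbered 6 and 4 for sensory neurons and 5 and 3 for satellite glia and Schwann cells. In wild type, the ratio of injured to sham was 0.34 (-0.35 to 1.06) for the macrophage genes, as it was for the members (0.34). Vomeronasal receptor genes, which are used in the vomeronasal organ and were taken as a closed reference, numbered 353 and had 164 summits in Silc1-/- injured, 166 in Silc1-/- sham, 156 in wild type injured and 130 in wild type sham, with a ratio of Silc1-/- injured to wild type injured of 0.36 (0.04 to 0.69). This interval lies above no change, so the closed reference itself shifted, here with the sign opposite to that of the members. It was also lower in wild type injured than in wild type sham (-0.42, interval -0.77 to -0.07) and between the sham groups lower in Silc1-/- (-0.47, interval -0.81 to -0.13). It was higher in Silc1-/- injured than in Silc1-/- sham (0.41, interval 0.09 to 0.73).

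**Figure D4:**
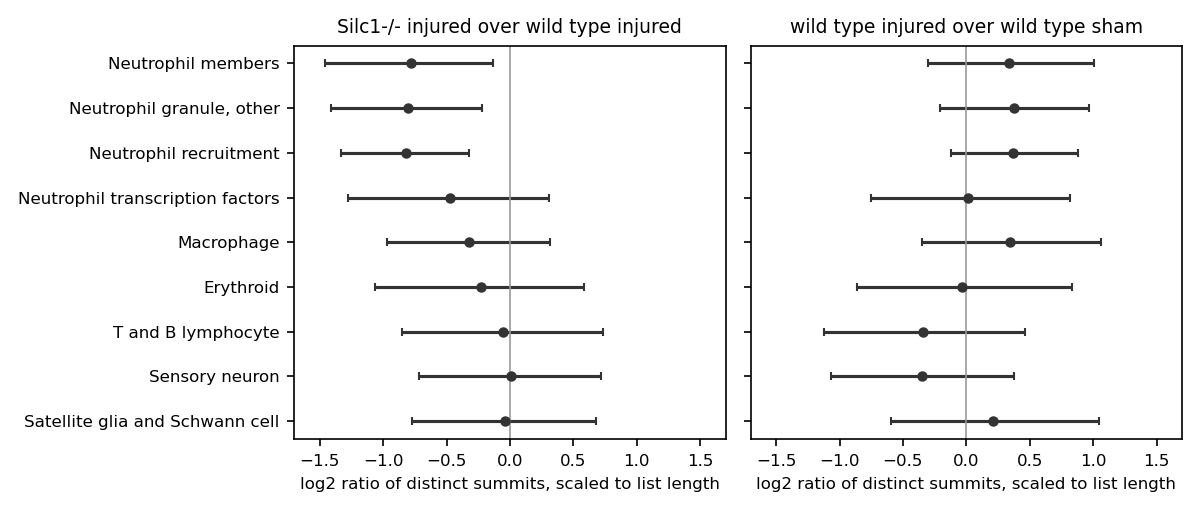
The log2 ratio of distinct summits within 50 kb, scaled to list length (horizontal axis), for 9 gene lists (vertical axis; the vomeronasal receptors are not drawn), with exact binomial 95% intervals as bars that cover counting error only. In the left panel (Silc1-/- injured over wild type injured) the members lie at -0.78, and the bars of the first 3 lists stay left of 0. In the right panel (wild type injured over wild type sham) every bar drawn includes 0, while that of the vomeronasal receptors would not (-0.77 to -0.07).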

How the data were processed

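The members were the 10 genes named; they and every gene list were chosen with earlier results of these data known. The submitters' processing notes name Bowtie2, MACS2 and the mm10 build, without the role of each; versions, read filters, pooling of the 3 libraries and any transposase shift: not given in the sources used here. The authors deposited 1 list of summits per group, each with a -log10 score; whether of the p-value or the q-value is not stated.

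Positions are 1-based. Genes came from RefSeq (GRCm38.p6), in which all 10 symbols matched. Each list's distinct summits within 50 kb were divided by list length. Intervals of ratios are exact binomial (Clopper-Pearson) on the split of the 2 counts. No p-value was computed. Per-gene ratios used counts scaled to the mean list length plus a pseudocount of 1. All members were named. Sites were named when within 5 kb of a member or highest-scoring in a class of lists, as were the genes with most summits in other lists; some further sites and genes were chosen after their values were seen. The scripts were tested on simulated data. Python 3.11.15, numpy 2.4.6, pandas 2.3.3, scipy 1.17.1 and matplotlib 3.10.9 were used.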

Additional observations from a re-analysis of the deposited data

Results flagged for a closer look

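The ratio of injured to sham for distinct summits near the members pointed in opposite directions in the genotypes, with a log2 value of -0.09 in Silc1-/- and 0.34 in wild type. With 1 list per group this difference was not tested, and both intervals include no change (-0.81 to 0.62 in Silc1-/- and -0.30 to 1.01 in wild type). Within 10 kb and within 100 kb, and without the Camp neighbourhood, the Silc1-/- value was above 0 (0.02, 0.07 and 0.03).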

How the results depend on the processing

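Ratios are log2, and 19 alternatives were run for each contrast: windows of 10 and 100 kb, scores of at least 5 and 10, no scaling, equal list lengths, scaling to summits near coding genes, no other coding gene ends, close summits joined, each neighbourhood left out in turn, and within 5 kb without other coding gene ends, the last chosen after seeing the data. Silc1-/- injured over wild type injured was below 0 in all 19 (-2.62 to -0.56) and past 1.5-fold in 18, the exception being 100 kb (-0.56). Its interval included no change at scores of at least 5 (upper end 0.12, from 16 against 38 summits). The same held at scores of at least 10 (upper end 0.43, from 6 against 19). In the other alternatives the interval of this contrast stayed below 0. The ratio was -1.71 (-3.29 to -0.38) within 10 kb and -2.62 (-5.79 to -0.51) within 5 kb without other ends. Both lay outside the interval of the reported value, but their own intervals overlap it. Wild type injured over sham was above 0 in all 19 (0.07 to 1.22) and past 1.5-fold in 4. It lay outside its interval without scaling (1.02) and within 5 kb without other ends (1.22, own interval -0.43 to 3.27). Silc1-/- sham over wild type sham was below 0 in 17 and turned to 0.47 without scaling and to 0.09 at scores of at least 10. It was past 1.5-fold in 2, within 10 kb (-0.83) and within 5 kb without other ends (-1.24). Within 100 kb it was -0.56, the same as between the injured groups at that distance, and its interval (-1.08 to -0.04) stayed below 0. In the other alternatives the interval of this sham contrast included no change. Silc1-/- injured over sham stayed within its interval (-0.78 to 0.07) but was past 1.5-fold in 1, at scores of at least 10 (-0.78). The cause of these shifts was not tested. Unknown depth limits every count. No paired analysis was possible because each group has 1 list and no replicate has values of its own; for the same reason no replicate could be left out.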
